A study of Rattus norvegicus with 10 samples.

Results

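The 10 genes described here encode the core of the mechanistic target of rapamycin (mTOR) pathway and its brake. They were taken by symbol from a deposited RNA-seq table of 16041 rat genes, and each of Tsc1, Tsc2, Mtor, Rptor, Rictor, Rheb, Akt1, Rps6kb1, Eif4ebp1 and Sgk3 matched 1 row. The set was selected on the RPKM of these genes in the stressed and control libraries, together with their known roles, so the comparison of the groups was already in view. The members' differences between the groups are therefore given as a description and not as a test. The tissue was prefrontal cortex of male Sprague-Dawley rats, taken at postnatal day 91. In 5 early life stress (ELS) rats rearing was with limited nesting material from postnatal day 2 to postnatal day 9, and 5 control rats were not so treated. The labels named no transgene, drug or litter, so the spread and p-values given here measure only the variation between these tissue samples.

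mTOR is a kinase that works in a pair of complexes. With Raptor (Rptor) it forms complex 1, which promotes protein synthesis, and with Rictor it forms complex 2, which phosphorylates kinases of the AKT and SGK families. Complex 1 is switched on at the lysosome by the small GTPase Rheb, and hamartin (Tsc1) and tuberin (Tsc2) together turn Rheb off, while AKT relieves that brake by phosphorylating tuberin. In the cortex the pathway is known for its part in neuronal growth and in synaptic protein synthesis, and loss of either TSC gene causes tuberous sclerosis. Most of this regulation acts on proteins, which these libraries did not measure.

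Tsc2, Sgk3 and Rictor are the members whose values differed most between the groups relative to their spread or in size. Promoter sequence, from 250 bases before to 50 after the annotated start, was at hand for 7 of the 10 members in the RefSeq table of build GRCr8. The promoters of Tsc2 and Rictor are shown because these genes lie on opposite sides, Tsc2 higher and Rictor lower in most ELS libraries. The Tsc2 promoter is at chr10:14160190-14160489 on the minus strand and the Rictor promoter at chr2:57539029-57539328 on the plus strand. Capitals mark the GC box GGGCGG and the ETS core CCGGAAG, on either strand.
Tsc2: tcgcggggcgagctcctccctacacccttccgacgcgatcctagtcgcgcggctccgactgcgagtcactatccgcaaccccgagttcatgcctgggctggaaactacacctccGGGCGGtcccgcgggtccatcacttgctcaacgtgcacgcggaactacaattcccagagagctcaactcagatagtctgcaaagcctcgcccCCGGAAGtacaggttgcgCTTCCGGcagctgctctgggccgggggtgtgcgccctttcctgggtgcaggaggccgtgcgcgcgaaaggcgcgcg
Rictor: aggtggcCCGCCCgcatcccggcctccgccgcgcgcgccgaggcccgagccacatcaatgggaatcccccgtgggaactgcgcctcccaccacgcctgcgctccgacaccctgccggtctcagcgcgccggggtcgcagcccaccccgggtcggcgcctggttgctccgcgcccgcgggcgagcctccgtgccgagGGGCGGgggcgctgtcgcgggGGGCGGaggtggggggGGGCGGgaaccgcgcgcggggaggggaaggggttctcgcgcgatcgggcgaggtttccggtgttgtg
The Tsc2 window held 2 ETS cores, one on each strand, and 1 GC box, while the Rictor window held 4 GC boxes and 0 ETS cores. Over all 33469 promoters of the table, 8.75% held the ETS core and 33.1% the GC box. The E-box CACGTG was also searched on both strands and was in neither window, while 6.42% of all promoters held it. Neither window held the cyclic AMP response core TGACGT, which 7.94% of all promoters held. The CCAAT box was in 37.5% of all promoters and the TATA box, spelled TATAAA, in 14.2%, and neither was in these windows. No match overlaps another in these windows. G and C made up 65.7% of the Tsc2 window and 78.3% of the Rictor window, against a median of 51.7% over all promoters. These matches describe the letters only.

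Library totals ran from 18838898 to 22311136 reads. Levels are RPKM, reads per kilobase of gene model scaled to the library's total, as the authors made them. ELS replicate 2 and control replicate 4 stood apart from their groups, ELS replicate 2 in Rictor and genes like it, and control replicate 4 in marker genes and with the sample weight 0.170 in limma-voom. By sample weight ELS replicate 2 did not stand apart, at 0.862 beside 0.868 for control replicate 3. Markers of excitatory and inhibitory cortical neurons, astrocytes, oligodendrocytes and microglia were all above 0. Control replicate 1 stood apart in the 5 striatal neuron markers, which summed to 115.7 RPKM there, against 62.3 to 69.0 in ELS and 34.4 to 58.9 in the other control libraries. The choroid plexus marker Ttr was at 31.1 RPKM in control replicate 4 and at most 1.96 RPKM in the other 9 libraries. Summed RPKM of the 6 mature oligodendrocyte markers was 790.5 to 1033 in ELS and 1050 to 2181 in controls, with the highest value in control replicate 4. The 5 astrocyte markers summed to 335.3 to 378.3 RPKM in ELS and 389.0 to 585.6 in controls, and neither of these pairs of ranges overlapped. The 4 general neuronal markers summed to 1223 to 1404 RPKM in ELS and 1008 to 1222 in controls. They were split, with Snap25, Syt1 and Rbfox3 having higher and Map2 lower means in ELS. The 5 excitatory neuron markers all had positive log2 fold changes (median 0.46), as did the 5 inhibitory neuron markers (median 0.27). Their summed RPKM overlapped between the groups. Averaged on the log2 scale about each gene's mean, excitatory markers were at 0.11 to 0.30 in ELS and -0.57 to 0.097 in controls. Inhibitory markers were at 0.020 to 0.28 in ELS and -0.77 to 0.20 in controls. Blood markers summed to 213.8 to 438.0 RPKM in ELS and 411.5 to 981.0 in controls, with a median log2 fold change of -1.07 over 4 rows, all negative. Microglia markers summed to 67.5 to 82.8 RPKM in ELS and 79.1 to 92.5 in controls, and oligodendrocyte precursor markers to 40.0 to 51.1 in ELS and 49.8 to 70.4 in controls, with 5 of 5 log2 fold changes negative in each list. The part of these markers in the members' differences was not tested, and in bulk tissue fewer cells of a type and less RNA per cell cannot be told apart.

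The members spanned a wide range of levels per unit of gene length. Rheb was highest at 60.4 ± 4.22 RPKM (SD, n = 10 libraries of both groups), followed by Akt1 at 46.7 ± 1.94 and Tsc2 at 28.5 ± 1.98. These levels exceeded the means of 94.7%, 92.5% and 86.5% of listed genes, and their ranges over the 10 libraries did not overlap. Mtor at 13.4 ± 0.813, Rps6kb1 at 13.2 ± 1.11, Tsc1 at 12.1 ± 0.790 and Rptor at 10.9 ± 0.90 RPKM formed a middle group in which each gene's range overlapped that of the next. Eif4ebp1 at 5.32 ± 0.991, Rictor at 3.16 ± 1.89 and Sgk3 at 2.74 ± 0.578 RPKM were lowest, again with overlapping neighbours. Per unit of gene model length, the RNA of tuberin was thus more abundant than that of its partner hamartin. The Tsc2 to Tsc1 ratio was 2.46 ± 0.174 in ELS and 2.27 ± 0.191 in controls (SD, n = 5 each). It rests on models of 5731 bases for Tsc2 and 3814 for Tsc1, whose completeness was not tested.

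**Figure D1:**
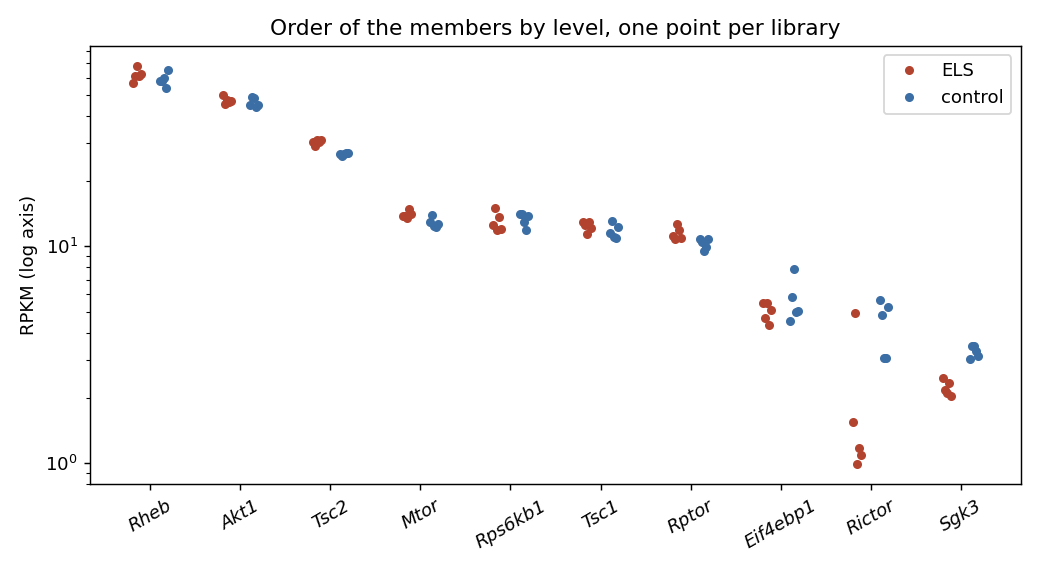
RPKM of each member on a log axis, one point per library, with ELS left of control for each gene and genes ordered by their mean over the 10 libraries. Rheb, Akt1 and Tsc2 stand above the rest, and Rictor has the widest spread, from 0.988 to 5.66 RPKM.

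The brake itself comprised one gene that was higher in ELS and one with overlapping groups. Tsc2 (ENSRNOG00000011375), the GTPase-activating subunit, was at 30.3, 28.9, 31.0, 30.3 and 30.8 RPKM in ELS replicates 1 to 5 and at 26.6, 26.1, 26.7, 27.0 and 26.8 RPKM in control replicates 1 to 5. Every ELS library lay above every control library, and ELS replicate 2 was the lowest of the ELS group. The means were 30.2 ± 0.806 in ELS and 26.7 ± 0.347 RPKM in controls (SD, n = 5 each), a log2 fold change of 0.18 ± 0.034 (SE, on the log2(RPKM + 0.1) scale), or 13.5% more in ELS. Between 3026 and 3643 reads per library fell on Tsc2. Its coefficient of variation was 2.67% in ELS and 1.30% in controls, where counting error alone would give 1.70% and 1.77%. The control spread was thus smaller than counting error, as in 15.8% of all tested genes. Tsc1 (ENSRNOG00000011470), the scaffold subunit that stabilises tuberin, was at 12.9, 12.5, 11.4, 12.9 and 12.1 RPKM in ELS and at 11.6, 13.1, 11.1, 10.9 and 12.3 RPKM in controls. These groups overlapped over most of their range, with a log2 fold change of 0.07 ± 0.061 (SE). The third subunit of the complex, Tbc1d7, had 4.25 ± 0.421 RPKM in ELS and 4.37 ± 0.658 RPKM in controls, a log2 fold change of -0.03.

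Reads near the ends of Tsc2 could be shared with neighbours if the counting did not use strand, which the sources used here do not state. Pkd1, which adjoins Tsc2 in the RefSeq table of build GRCr8 and overlaps it there, was at 12.2 ± 0.566 RPKM in ELS and 12.7 ± 0.552 RPKM in controls. The neighbour on the other side, the DNA repair gene Nthl1, was at 1.55 ± 0.213 RPKM in ELS and 1.85 ± 0.193 RPKM in controls. Both neighbours had overlapping groups. Their part in the Tsc2 values was not tested.

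Rheb (ENSRNOG00000050578), the GTPase that tuberin turns off, was at 56.6, 61.3, 68.0, 61.3 and 62.4 RPKM in ELS and at 57.9, 57.9, 59.5, 53.6 and 65.2 RPKM in controls. The groups overlapped, and the log2 fold change was 0.07 ± 0.060 (SE). Its paralogue Rhebl1 had 6.01 ± 0.452 RPKM in ELS and 5.07 ± 0.796 RPKM in controls (log2 fold change 0.25 ± 0.11, SE; limma, adjusted p = 0.218).

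**Figure D2:**
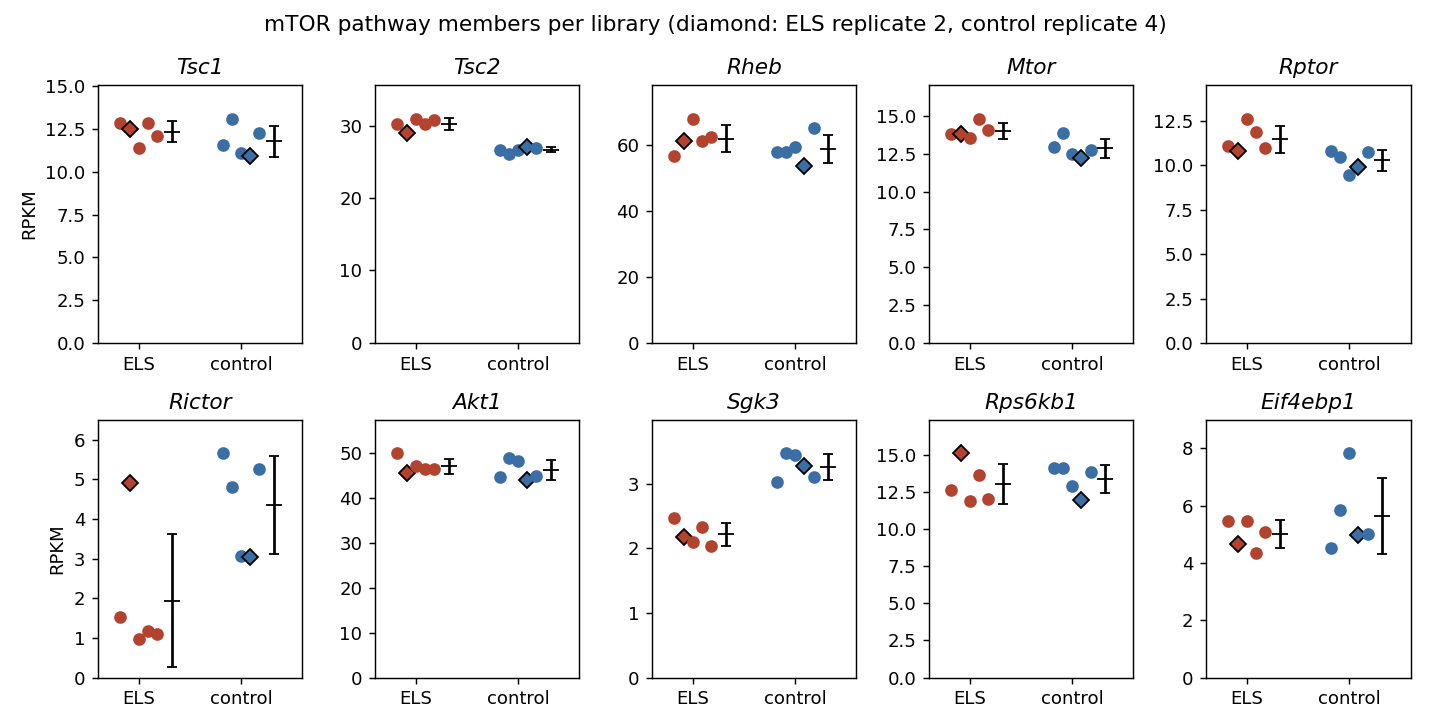
RPKM of the 10 members per library, ELS left of control, each axis starting at 0; points are libraries, diamonds mark ELS replicate 2 and control replicate 4, and black bars are mean ± SD (n = 5). The groups separate completely for Tsc2, with ELS above, and for Sgk3, with ELS below, while the Rictor value of ELS replicate 2, 4.92 RPKM, lies far above the 0.988 to 1.54 RPKM of the remaining ELS libraries.

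The kinase and its complex 1 partner were slightly higher in ELS, with overlap. Mtor (ENSRNOG00000009615) was at 13.8, 13.8, 13.5, 14.8 and 14.0 RPKM in ELS and at 12.9, 13.9, 12.4, 12.2 and 12.7 RPKM in controls. Control replicate 2, at 13.9, was the only control library inside the ELS range, and the log2 fold change was 0.12 ± 0.047 (SE). Rptor (ENSRNOG00000003821), which brings substrates to complex 1, was at 11.1, 10.8, 12.6, 11.9 and 10.97 RPKM in ELS and at 10.8, 10.4, 9.47, 9.89 and 10.8 RPKM in controls. ELS replicate 2 reached down to the top of the control range, and the log2 fold change was 0.16 ± 0.060 (SE). Mlst8, a subunit of both complexes, had 7.70 ± 0.427 RPKM in ELS and 7.42 ± 0.648 RPKM in controls, and Deptor, an inhibitor of mTOR, had 5.89 ± 0.938 RPKM in ELS and 6.53 ± 1.70 RPKM in controls.

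Rictor (ENSRNOG00000011341), the defining subunit of complex 2, had the widest difference and the widest spread. It was at 1.54, 4.92, 0.988, 1.17 and 1.09 RPKM in ELS and at 5.66, 4.801, 3.06, 3.05 and 5.27 RPKM in controls. Of the 5 ELS libraries, 4 lay below every control library and ELS replicate 2 lay inside the control range. Controls were themselves uneven, with replicates 3 and 4 near 3 RPKM and the other 3 libraries between 4.801 and 5.66. The log2 fold change was -1.36 ± 0.40 (SE) with all libraries, and -1.75 ± 0.22 (SE) without ELS replicate 2. The Rptor to Rictor ratio, raptor RNA per unit of rictor RNA, was 7.20, 2.19, 12.8, 10.1 and 10.03 in ELS and 1.91, 2.18, 3.10, 3.24 and 2.04 in controls. The difference in this ratio follows Rictor, since Rptor varied little. Reads on Rictor numbered 109 to 635 per library. Counting error alone would give a coefficient of variation of 6.94% in ELS and 4.48% in controls, against observed values of 86.4% and 28.3%.

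Other genes of complex 2 were measured too. Mapkap1, which encodes the subunit SIN1 and is named here after its values were seen, was at 9.31 ± 0.389 RPKM in ELS and 9.48 ± 0.570 RPKM in controls (log2 fold change -0.03). Prr5l, a rictor-binding protein gene, was at 0.937 to 1.19 RPKM in ELS and 1.20 to 2.02 RPKM in controls (log2 fold change -0.39 ± 0.15, SE; limma, adjusted p = 0.193). Its ELS libraries were all below the controls, as in 2.6% of all tested genes, with ELS replicate 2 at 1.01 RPKM. The groups nearly met, with the highest ELS value at 1.194 and the lowest control value at 1.199 RPKM. Reads on Prr5l numbered only 43 to 104 per library. Its log2 fold change was -0.25 without ELS replicate 2 and control replicate 4. The paralogue Prr5, also named after its values were seen, was at 2.39 ± 0.645 RPKM in ELS and 2.02 ± 0.350 RPKM in controls, with overlapping groups (log2 fold change 0.21 ± 0.19, SE; limma, adjusted p = 0.568).

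Rictor shared its library pattern with many other genes. Likeness was measured by Pearson's r over the 10 libraries of log2(RPKM + 0.1) after each group's mean had been taken off, as a description without a test. Of the 14641 other genes tested, 134 reached an r of at least 0.9 with Rictor, against 9 with Tsc2 and 3 with Sgk3. Without ELS replicate 2 the numbers were 63, 20 and 7, and without control replicate 4 as well they were 120, 37 and 31, where fewer libraries make a high r easier to reach. The choice to do this for Rictor was made after its values were seen. The 5 genes most like it were Akap11, an anchoring protein of protein kinase A (r = 0.99), the adaptor gene Dok6 (r = 0.99), the RNA-binding ubiquitin ligase gene Rc3h1 (r = 0.99), the transcription factor gene Klf12 (r = 0.98) and Cd2ap, an adaptor of the actin cytoskeleton (r = 0.98). Without ELS replicate 2 and control replicate 4 these values were 0.98, 0.95, 0.92, 0.93 and 0.97 over 8 libraries, which are part of the 10 that chose these genes. Dok6 was at 4.32 ± 3.82 RPKM in ELS and 9.81 ± 2.38 RPKM in controls, and Akap11 at 24.4 ± 6.11 RPKM in ELS and 31.2 ± 3.68 RPKM in controls. Their log2 fold changes were -1.43 and -0.38 with all libraries, and -1.96 and -0.57 without ELS replicate 2 and control replicate 4.

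**Figure D3:**
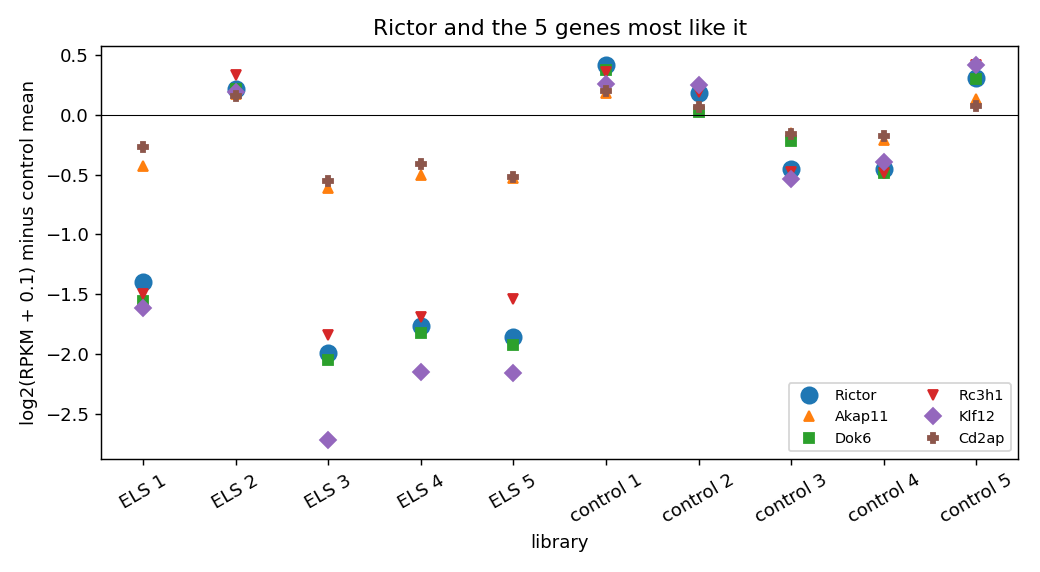
Distance of each library from the control mean on the log2(RPKM + 0.1) scale for Rictor and the 5 genes most like it, with ELS libraries left of control libraries and one symbol per gene. ELS replicate 2 lies above the control mean for all 6 genes, the other ELS libraries lie below it, and control replicates 3 and 4 lie below control replicates 1, 2 and 5.

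The 5 genes most like Tsc2 were Pomk (r = 0.94), Lamtor5 (r = 0.92), Hdgf (r = 0.92), Epb41l1 (r = 0.91) and Hus1 (r = 0.91). Without ELS replicate 2 and control replicate 4 the values were 0.74, 0.70, 0.60, 0.73 and 0.93, lower for the first 4. Lamtor5 belongs to the Ragulator complex that anchors mTOR complex 1 at the lysosome, and was at 21.4 ± 1.51 RPKM in ELS and 22.8 ± 1.07 RPKM in controls. Its log2 fold change was -0.09 ± 0.057 (SE, limma, adjusted p = 0.371), opposite in sign to that of Tsc2, but its groups overlapped. It was -0.03 without ELS replicate 2 and control replicate 4. The genes most like Sgk3 were Nkain1 (r = 0.93), LOC100361240 (r = 0.93), SNORA65 (r = 0.91), Mon1a (r = 0.89) and LOC679342 (r = 0.88), with values of 0.99, 0.96, 0.94, 0.89 and 0.89 without those libraries.

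Within the groups, several members varied together across libraries. With group means taken off, Pearson's r on the log2(RPKM + 0.1) scale over the 10 libraries was -0.87 between Tsc2 and Rictor, -0.87 between Tsc2 and Rps6kb1, and 0.85 between Rictor and Rps6kb1. Over the 8 libraries other than ELS replicate 2 and control replicate 4 the values were -0.34, -0.66 and 0.60. Not every pair weakened in this way. Over 10 and 8 libraries r was 0.82 and 0.79 between Tsc1 and Mtor, and 0.71 and 0.82 between Akt1 and Sgk3. It was -0.36 and -0.79 between Tsc2 and Mtor. The libraries share depth and scaling, and no test was made of these values.

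Of the kinases beside and below the complexes, Sgk3 was lower in every ELS library, and Akt1 had overlapping groups. Akt1 (ENSRNOG00000028629), which phosphorylates tuberin, was at 50.01, 45.6, 47.1, 46.4 and 46.6 RPKM in ELS and at 44.7, 49.0, 48.3, 44.1 and 45.0 RPKM in controls, a log2 fold change of 0.03 ± 0.044 (SE). The paralogue Akt2 was at 23.6 ± 1.57 RPKM in ELS and 24.2 ± 1.82 RPKM in controls. Both genes had overlapping groups.

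Sgk3 (ENSRNOG00000049052), an AKT-related kinase that binds endosomal phosphoinositide, was at 2.46, 2.17, 2.10, 2.33 and 2.03 RPKM in ELS and at 3.02, 3.47, 3.45, 3.28 and 3.10 RPKM in controls. Every ELS library lay below every control library, ELS replicate 2 included. The means were 2.22 ± 0.176 RPKM in ELS and 3.26 ± 0.201 RPKM in controls (SD, n = 5 each), a log2 fold change of -0.54 ± 0.082 (SE), or -32.0%. These values rested on 72, 61, 63, 73 and 60 reads in ELS and 92, 114, 102, 109 and 91 reads in controls. Counting error alone would give a coefficient of variation of 12.3% in ELS and 9.92% in controls, and the observed spread was smaller, 7.94% and 6.17%. Both groups were below their counting error in 6.28% of all tested genes. The counting error of the Sgk3 log2 fold change was 0.10 (SE from the summed reads), more than the fitted SE. The paralogue Sgk1, a glucocorticoid-induced kinase gene, was at 11.03 ± 1.28 RPKM in ELS and 12.7 ± 1.18 RPKM in controls (log2 fold change -0.20 ± 0.092, SE; limma, adjusted p = 0.247). Of the neighbours of Sgk3, Mcmdc2 was at 3.22 ± 0.102 RPKM in ELS and 3.58 ± 0.467 RPKM in controls, and Vcpip1 at 6.62 ± 2.30 RPKM in ELS and 9.61 ± 1.38 RPKM in controls. Their part in the Sgk3 values was not tested either.

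The 2 substrates of complex 1 had overlapping groups. Rps6kb1 (ENSRNOG00000003919), which encodes the ribosomal protein S6 kinase, was at 12.6, 15.1, 11.8, 13.7 and 12.0 RPKM in ELS and at 14.1, 14.1, 12.9, 11.9 and 13.8 RPKM in controls. ELS replicate 2 was the highest of all 10 libraries, and the log2 fold change was -0.04 ± 0.076 (SE). It was -0.09 without ELS replicate 2 and -0.13 without control replicate 4 as well. Rnft1, which overlaps Rps6kb1 in the RefSeq table, was at 5.65 ± 0.730 RPKM in ELS and 6.24 ± 0.359 RPKM in controls. Its part in the Rps6kb1 values was not tested. Eif4ebp1 (ENSRNOG00000012582), a repressor of cap-dependent translation, was at 5.46, 4.66, 5.45, 4.36 and 5.10 RPKM in ELS and at 4.53, 5.84, 7.83, 4.96 and 5.01 RPKM in controls. Control replicate 3 was the highest, on 129 reads, and the log2 fold change was -0.15 ± 0.14 (SE), against -0.02 without that library. Their paralogues were alike in this: Rps6kb2 was at 18.2 ± 1.92 RPKM in ELS and 18.2 ± 1.56 RPKM in controls, and Eif4ebp2 at 8.28 ± 0.708 RPKM in ELS and 9.34 ± 0.809 RPKM in controls (log2 fold change -0.17 ± 0.080, SE).

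Counted together, 0 of 10 members had a limma p under 0.05 once adjusted by Benjamini-Hochberg over all 14642 tested genes, where the background share was 0%. At an unadjusted p under 0.05, where 20.4% of all tested genes fell, there were 5 members. These were Tsc2, Mtor and Rptor with higher values in ELS (10.1% of all tested genes) and Sgk3 and Rictor with lower values (10.3%). The groups did not overlap in 2 of 10 members, against 5.68% of all tested genes, with 1 member above, against 3.08%, and 1 below, against 2.6%. On the recovered reads limma-voom also called 0 genes, and 20.4% of genes had an unadjusted p under 0.05. Without ELS replicate 2, 3.03% of all tested genes passed an adjusted p of 0.05, and among the members these were Tsc2 (adjusted p = 0.0233), Sgk3 (adjusted p = 0.0233) and Rictor (adjusted p = 0.0106). These 3 and no other member also passed without both ELS replicate 2 and control replicate 4, where 7.44% of all tested genes did (3.51% higher, 3.92% lower), and by limma-voom with sample weights, where 6.44% did (2.01% higher, 4.43% lower). Leaving out ELS replicate 2 alone gave 0.929% higher and 2.1% lower, and leaving out ELS replicate 5 gave 0.00687% in all, with 0 members. Since the set was chosen with this contrast known, and ELS replicate 2 stood apart in Rictor itself, nothing is read from these counts.

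The wider pathway was examined through 86 further genes, of which 78 were measured. Of these, 0 passed an adjusted p of 0.05 (limma), and at an unadjusted p under 0.05 there were 8 higher and 6 lower in ELS, 17.9% of the 78 against 20.4% of all tested genes. The log2 fold change was positive in 42 of 78, and the median log2 fold change was 0.01, against 0.0037 over all tested genes. Without ELS replicate 2, where 3.03% of all tested genes passed, 2 of these pathway genes did. They were the autophagy kinase gene Ulk1, a substrate of complex 1, which was higher, and Eif4ebp3, which was lower.

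Of 9 further genes of complex subunits and assembly, 5 had a positive and 4 a negative log2 fold change, and their median was 0.05. The assembly factor gene Tti2 was at 4.43 ± 0.326 RPKM in ELS and 3.94 ± 0.301 RPKM in controls (log2 fold change 0.16). The most abundant was Akt1s1, which encodes the complex 1 inhibitor PRAS40, at 20.3 ± 1.20 RPKM in ELS and 21.9 ± 1.55 RPKM in controls.

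Of 14 genes of the TSC complex and its inputs, 5 had a positive and 9 a negative log2 fold change, with a median of -0.04. Sesn2, a stress-induced inhibitor of complex 1, was at 4.21 ± 0.327 RPKM in ELS and 3.57 ± 0.294 RPKM in controls. Its log2 fold change was 0.23 ± 0.080 (SE, limma, adjusted p = 0.167). The adjusted p of Sesn2 was 0.103 without ELS replicate 2 and 0.0844 without control replicate 4 as well (limma). Prkaa2, a catalytic subunit of the energy sensor AMPK, was at 3.52, 5.64, 1.11, 2.01 and 2.15 RPKM in ELS and 5.33, 5.22, 4.09, 3.55 and 5.67 RPKM in controls (log2 fold change -0.88 ± 0.36, SE; limma, adjusted p = 0.207). As for Rictor, ELS replicate 2 lay within the control range and the other ELS libraries below every control library. The log2 fold change was -1.17 without ELS replicate 2 (limma, adjusted p = 0.0601) and -1.27 without control replicate 4 as well (limma, adjusted p = 0.0365). Of all tested genes, 3.03% and 7.44% passed in these settings. The most abundant of the list, Gsk3b, a kinase that phosphorylates tuberin, was at 28.5 ± 4.74 RPKM in ELS and 30.2 ± 5.40 RPKM in controls, with a log2 fold change of -0.08, and of -0.20 without both libraries.

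In the PI3K and AKT arm 7 of 17 genes had a positive and 10 a negative log2 fold change, with a median of -0.03. Pik3r2, a regulatory subunit of PI3K and the most abundant of the arm, was at 46.9 ± 1.57 RPKM in ELS and 42.5 ± 1.98 RPKM in controls. Its log2 fold change was 0.14 ± 0.042 (SE, limma, adjusted p = 0.138). Leaving out ELS replicate 2 gave 0.15 (limma, adjusted p = 0.103), and leaving out control replicate 4 as well gave 0.18 (limma, adjusted p = 0.0308). In the last setting 7.44% of all tested genes passed. The insulin receptor substrate gene Irs1 was at 1.16 ± 0.203 RPKM in ELS and 1.59 ± 0.277 RPKM in controls. Its log2 fold change was -0.42 ± 0.16 (SE, limma, adjusted p = 0.183), with an adjusted p of 0.186 and 0.192 (limma) in the same settings.

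The 21 measured genes of lysosomal amino acid sensing had 13 positive and 8 negative log2 fold changes, with a median of 0.05. Rragc, one of the Rag GTPases that recruit complex 1 to the lysosome, was at 25.7 ± 0.947 RPKM in ELS and 23.1 ± 0.985 RPKM in controls. Its log2 fold change was 0.15 ± 0.043 (SE, limma, adjusted p = 0.133). The adjusted p of Rragc was 0.0610 without ELS replicate 2 and 0.0513 without control replicate 4 as well (limma). Rraga, the most abundant of the list, was at 42.3 ± 1.28 RPKM in ELS and 40.2 ± 2.31 RPKM in controls. Wdr59, of the GATOR2 complex, was at 3.62 ± 0.303 RPKM in ELS and 4.10 ± 0.321 RPKM in controls (log2 fold change -0.18).

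Of 17 direct targets and translation factors 12 had a positive and 5 a negative log2 fold change, with a median of 0.02. This split turned with the scaling, to 8 and 9 with a median of -0.0069 after upper quartile scaling and to 9 and 8 with a median of 0.0021 in limma-voom. Ulk1 was at 19.3, 17.3, 18.8, 18.9 and 18.6 RPKM in ELS and 16.4, 16.3, 15.9, 14.98 and 17.3 RPKM in controls (log2 fold change 0.20 ± 0.049, SE; limma, adjusted p = 0.133). Only ELS replicate 2 and control replicate 5 met, both at 17.3 RPKM. Eif4ebp3 was at 4.75 ± 0.757 RPKM in ELS and 6.002 ± 0.485 RPKM in controls (log2 fold change -0.34 ± 0.11, SE; limma, adjusted p = 0.143). Its gene model was 8986 bases long, against 831 bases for Eif4ebp1. Whether the reads on that model came from Eif4ebp3 alone was not tested. Eef2, an elongation factor gene and the most abundant of the list, was at 308.2 ± 9.62 RPKM in ELS and 307.2 ± 11.9 RPKM in controls.

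**Figure D4:**
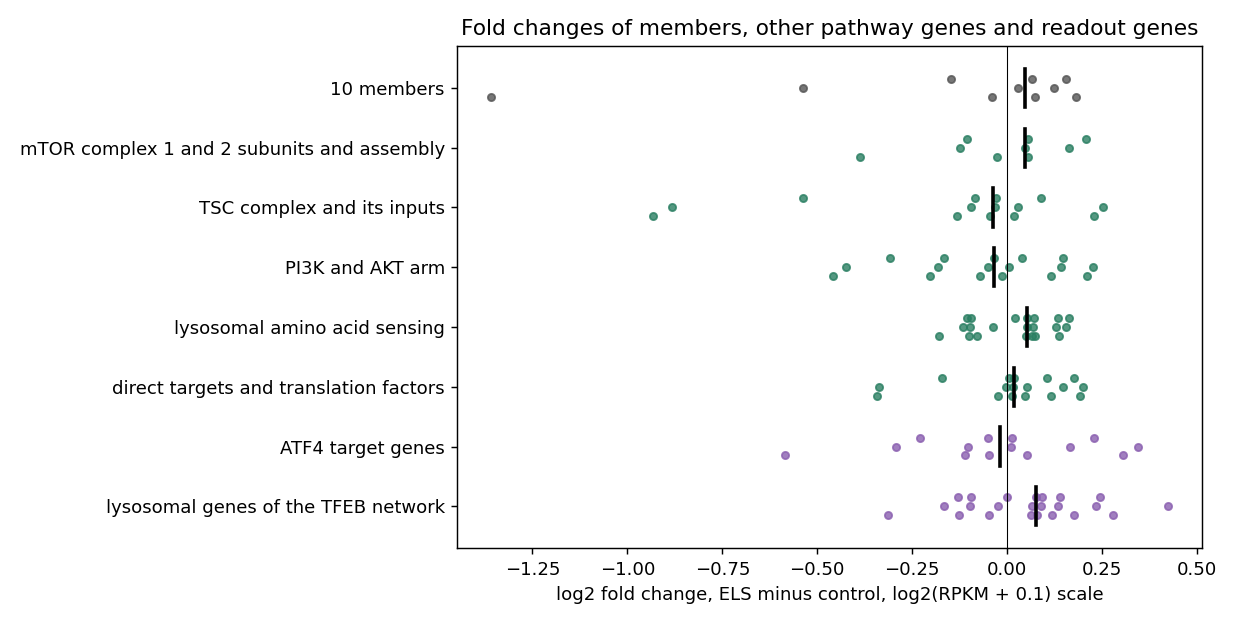
Log2 fold change (ELS minus control, on the log2(RPKM + 0.1) scale) of the 10 members, of the other pathway genes in 5 lists and of 2 lists of genes that respond to mTOR signalling; each point is a gene and each black line the median of its list. The list medians lie between -0.04 and 0.08, and Rictor is the point farthest to the left.

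Transcripts known to respond to complex 1 were described in 2 lists, and 0 of either passed an adjusted p of 0.05 (limma). Complex 1 promotes translation of the transcription factor ATF4. Of 14 measured genes of the ATF4 list, ATF4 included, 7 had a positive and 7 a negative log2 fold change, with a median of -0.02. Sesn2 is in this list and also in that of the TSC complex and its inputs. At an unadjusted p under 0.05, 3 were higher and 2 lower, or 35.7% of the list against 20.4% of all tested genes. The split of positive and negative values was 5 and 9 after upper quartile scaling and also in limma-voom. Atf4 itself, the most abundant of this list, was at 71.8 to 75.6 RPKM in ELS and at 55.6 to 70.3 RPKM in controls, without overlap (log2 fold change 0.17 ± 0.064, SE; limma, adjusted p = 0.185). Chac1, which encodes a glutathione-degrading enzyme, was at 6.26 ± 0.549 RPKM in ELS and 4.95 ± 0.854 RPKM in controls (log2 fold change 0.34). The cystine transporter gene Slc7a11 was at 5.67 ± 1.21 RPKM in ELS and 8.45 ± 0.909 RPKM in controls (log2 fold change -0.58 ± 0.14, SE; limma, adjusted p = 0.133). Slc7a11 was highest within ELS in replicate 2, at 7.57 RPKM, and its log2 fold change was -0.69 without that library (limma, adjusted p = 0.0197). Atf4 had a log2 fold change of 0.18 without ELS replicate 2 (limma, adjusted p = 0.165) and of 0.12 without control replicate 4 as well (limma, adjusted p = 0.0492). Chac1 had an adjusted p of 0.124 and 0.0915 (limma) in these settings. Of all tested genes, 3.03% and 7.44% passed there.

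Complex 1 also holds back the transcription factor TFEB, which drives lysosomal genes. Of 23 measured lysosomal genes 15 had a positive and 8 a negative log2 fold change, with a median of 0.08. At an unadjusted p under 0.05, 7 were higher and 4 lower, or 47.8% of the list against 20.4% of all tested genes. The vacuolar proton pump gene Atp6v1b2 was at 195.6 to 216.9 RPKM in ELS and 157.6 to 186.1 RPKM in controls (log2 fold change 0.23 ± 0.050, SE; limma, adjusted p = 0.133). Npc2, which encodes a lysosomal cholesterol carrier, was at 21.6 to 25.3 RPKM in ELS and 27.1 to 32.6 RPKM in controls (log2 fold change -0.31 ± 0.058, SE; limma, adjusted p = 0.133). Both passed the threshold without ELS replicate 2, where 3.03% of all tested genes did. Atp6v1b2 had a log2 fold change of 0.25 there (limma, adjusted p = 0.0403) and Npc2 of -0.34 (limma, adjusted p = 0.0289). Psap, the most abundant of the list, was at 430.5 ± 17.9 RPKM in ELS and 407.3 ± 11.2 RPKM in controls. The part of the marker differences given above in these lists was not tested. Both this list and the ATF4 list were chosen with earlier results of these data known, so nothing is read from their shares.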

How the data were processed

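RNA was extracted by column with DNase digestion and made into libraries with a stranded kit for mRNA, per the labels' protocols. STAR, featureCounts and the rat build rn6 are named in the submitters' processing notes, without versions; neither the strand setting nor the annotation is stated there. The deposited table holds RPKM-type values that the authors scaled by gene length and library total, and whether RPKM or FPKM was meant is not stated. From its steps, whole reads, gene model lengths and library totals were recovered for 16015 genes, 100% of those above 0, within 0.002 reads. No column belonged to another series (0).

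The analysis scale was log2(RPKM + 0.1). A gene entered the tests if 5 libraries or more reached 0.5 RPKM, which 14642 genes and all 10 members did. ELS was compared with control by limma 3.58.1 in R 4.3.3, two-sided, with a mean-variance trend, robust moderation and Benjamini-Hochberg adjustment. The procedure was run on simulated reads with the same variation beyond counting error for every gene and no outlying library. These data differ in both respects, and the outcome of that run is not given here. The members, lists and the genes named were chosen with earlier results of these data known; named were the members, their paralogues and partners, neighbours, the genes most alike in pattern, and in each list the gene of lowest p per direction and of highest mean. One gene of that rule is not reported here. Alternatives were the pseudocount, filter, scaling, limma-voom, a replicate block and leaving out libraries.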

Additional observations from a re-analysis of the deposited data

Results flagged for a closer look

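Rictor was at 4.92 RPKM in ELS replicate 2, far from the 0.988 to 1.54 RPKM of the other ELS libraries, by a gap of 0.859 of the group's whole range. This was the 1 case among 20 groups of 5 libraries looked at, where chance flags about 1 in 20. The value lies inside the control range of 3.05 to 5.66 RPKM.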

How the results depend on the processing

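Over 20 alternatives the direction of each member's log2 fold change was kept in all 20. The count of genes past an adjusted p of 0.05, 0 by limma with 2988 at an unadjusted p under 0.05, was 943 by limma-voom with sample weights (295 higher, 648 lower) and 1071 without both ELS replicate 2 and control replicate 4. Leaving out 1 library gave 0 to 440, the highest without ELS replicate 2. Of the other pathway genes 3 of 78 passed with sample weights, against 6.44% of all tested genes. Without both libraries 7 of 77 passed, against 7.44% of all tested genes, and 0 to 2 passed with 1 library left out. Tsc2, Rictor and Sgk3 passed with sample weights, without both libraries and without ELS replicate 2, where 6.44%, 7.44% and 3.03% of all tested genes passed. These 3 settings drop or down-weight ELS replicate 2 or control replicate 4, and no other member passed under any. ELS replicate 2 stood apart in Rictor itself, so leaving it out removes the highest ELS value of Rictor. The members were chosen with this contrast known, so nothing is read from these passes. With a pseudocount of 1 the Sgk3 log2 fold change was -0.41. The median log2 fold change of the lysosomal genes was 0.050 with upper quartile scaling and 0.036 with sample weights. Upper quartile scaling turned the median of direct targets to -0.0069. Without both libraries the medians were 0.064 for direct targets, 0.026 for the ATF4 list and 0.0013 for the TSC complex and its inputs, the last 2 opposite in sign to those with all libraries. With 1 library left out they ran from -0.033 to 0.025 for the ATF4 list, from 0.024 to 0.064 for amino acid sensing, and from 0.021 to 0.047 for direct targets. Deviations of same-numbered libraries from their group means correlated at -0.0817 to 0.0658. The labels do not say that equal numbers pair samples, and whether such samples share a litter or batch was not tested. The replicate block gave 0 genes in all and 0 pathway genes, and Tsc2, Sgk3 and Rictor had an adjusted p of 0.222 with it. A quasi-likelihood test and a negative binomial test on the recovered reads had been planned and were not run; limma-voom was the test run on those reads. Sgk3 with 60 to 114 reads and Eif4ebp1 with 73 to 129 reads per library are limited by depth.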
